A study of Rattus norvegicus with 6 samples.

Results

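The genes described here are ligands of the transforming growth factor beta (TGF-beta) family, TGF-beta receptors and intracellular SMADs, together with the matrix protein gene Ltbp2, in the rat sciatic nerve. They were chosen by name and comprise 10 gene symbols, which are Tgfb1, Tgfb2, Tgfb3, Inhba, Ltbp2, Tgfbr1, Tgfbr2, Tgfbr3, Smad3 and Smad7. The symbols match 11 of the 30957 rows of the mRNA table, because Tgfbr1 is listed under 2 identifiers. All 11 rows passed the filter on low counts, which left 15195 mRNAs for testing.

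Total RNA was sequenced from the sciatic nerve of 1-month-old Sprague-Dawley rats in 3 groups of 2 rats, with 1 library per rat. In the D4 and D7 groups the nerve had been crushed with a clamp and was collected 4 or 7 days later. The control group is labelled as normal, and the methods describe it as operated without the clamp. No transgene or drug treatment beyond anesthesia is given for any group, and the sources describe the samples only as normal or injured nerve, without a cell sort, so that a library mixes cell types. The rats carried the letters a and b within each group. The p-values below come from tests of a difference between groups, judged against the spread between rats within the groups.

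TGF-beta ligands are secreted in a latent complex and bind a pair of serine/threonine kinase receptors, Tgfbr2 and Tgfbr1, after release. The receptors phosphorylate Smad2 and Smad3, which enter the nucleus with Smad4, while Smad7 is induced by the signal and inhibits the receptor. In peripheral nerve the pathway is known for acting on Schwann cells, fibroblasts and macrophages, and TGF-beta made by macrophages is known to be part of the response to injury.

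The proximal promoters of Tgfb1, Inhba and Ltbp2 are shown for the following reasons. Tgfb1 was the only member called higher on both days. Inhba and Ltbp2 were the only members whose promoter held CAGAC, a SMAD-binding letter sequence called the SMAD box here. It was searched on both strands, and shorter forms of it were not searched. Each sequence is from RefSeq, build GRCr8, and runs 5′ to 3′ from 250 bases before to 50 bases after the annotated start. Capitals mark SMAD boxes, with GTCTG being the box on the opposite strand.
Tgfb1, chr1:90324062-90324361, + strand: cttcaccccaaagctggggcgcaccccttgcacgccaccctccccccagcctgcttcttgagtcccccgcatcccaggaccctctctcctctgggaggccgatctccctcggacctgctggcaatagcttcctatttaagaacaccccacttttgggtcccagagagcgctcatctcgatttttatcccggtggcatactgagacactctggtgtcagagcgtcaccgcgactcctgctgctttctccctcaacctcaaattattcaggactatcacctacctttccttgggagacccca
Inhba, chr17:53804459-53804758, - strand: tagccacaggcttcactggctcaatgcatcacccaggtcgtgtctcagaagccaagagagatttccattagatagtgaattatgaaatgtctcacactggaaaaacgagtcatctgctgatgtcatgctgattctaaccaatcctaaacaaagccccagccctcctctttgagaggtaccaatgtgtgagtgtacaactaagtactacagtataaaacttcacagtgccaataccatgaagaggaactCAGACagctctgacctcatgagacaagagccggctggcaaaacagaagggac
Ltbp2, chr6:110257249-110257548, - strand: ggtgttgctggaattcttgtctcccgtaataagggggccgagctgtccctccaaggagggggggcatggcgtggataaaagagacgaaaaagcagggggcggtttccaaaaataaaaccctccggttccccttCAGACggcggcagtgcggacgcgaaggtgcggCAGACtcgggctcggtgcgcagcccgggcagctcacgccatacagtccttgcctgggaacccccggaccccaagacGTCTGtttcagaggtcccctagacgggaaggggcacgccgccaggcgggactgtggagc
All 10 members had a promoter in the RefSeq table. A SMAD box was present in 2 of the 10, against 50.1% of the 33469 promoters of the same length. In Inhba the box begins at position -2 from the start, and in Ltbp2 there are 3 boxes, at -117, -85 and -9. The SMAD palindrome GTCTAGAC was in 0 of 10 member promoters and 0.197% of all, and the AP-1 letters TGANTCA in 0 of 10 and 7.33% of all. The GC content of the member promoters ran from 45.7% in Inhba to 77.7% in Smad7, with a median of 51.7% over all promoters. These are letter matches in a 300-base window and not measured binding.

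Levels are given as CPM, which is a gene's count scaled to the size of its library after adjustment by the trimmed mean of M values (TMM). The 6 libraries held between 18727255 and 25350886 mRNA counts. The summed level of 7 myelinating Schwann cell markers was 69619 to 102313 CPM in control nerve and 3367 to 17024 after crush, and that of 8 macrophage markers was 318 to 352 in control nerve and 676 to 1104 after crush. Control b stood apart from control a in the sum of 5 pericyte and smooth muscle markers. This sum was 953 CPM in control a and 3808 in control b, a 4.00-fold difference within the group. In the crushed nerves it was 542 to 818. Most of the difference lay in Myh11, at 298 and 2621 CPM in control a and b, with Des at 58.8 and 278. Rgs5 (106 and 178), Cspg4 (245 and 431) and Pdgfrb (245 and 300) differed less. Of the 12 marker lists, none had a marker in the mRNA table that was at 0 in all libraries. The table held 4 of 5 endothelial markers and 4 of 6 skeletal muscle markers, and all markers of the other lists. In bulk tissue, fewer cells of a type and less RNA per cell cannot be told apart.

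A gene was called when edgeR's quasi-likelihood test gave a Benjamini-Hochberg adjusted p below 0.05 over all mRNAs tested and the change was at least 2-fold. At D4, 1 of the 11 rows was called, Tgfb1, which was higher, where 21.9% of all mRNAs tested were called. At D7, 2 rows were called, Tgfb1 and Tgfbr1, both higher, where 18.8% of all mRNAs were called. Between D7 and D4, 0 rows were called by edgeR and 0 by DESeq2, where 2.18% of all mRNAs were called by edgeR. An unadjusted p below 0.05 in edgeR's test was reached by 2 rows, beside 24.7% of all mRNAs tested. None of these member counts exceeds what the share over all mRNAs would give for 11 rows, and no test of that was made. The median log2 fold change of the 11 rows was -0.11 at D4 and 0.01 at D7, beside -0.04 and 0.01 over all mRNAs tested. Against control, the libraries did not overlap for 6 rows at D4 and 4 at D7, beside 76.2% and 71.9% of all mRNAs. Between D7 and D4 this held for 5 rows, beside 60.6%. Both crush groups were compared with the same 2 control libraries, so the values at D4 and at D7 are not independent of each other.

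**Figure D1:**
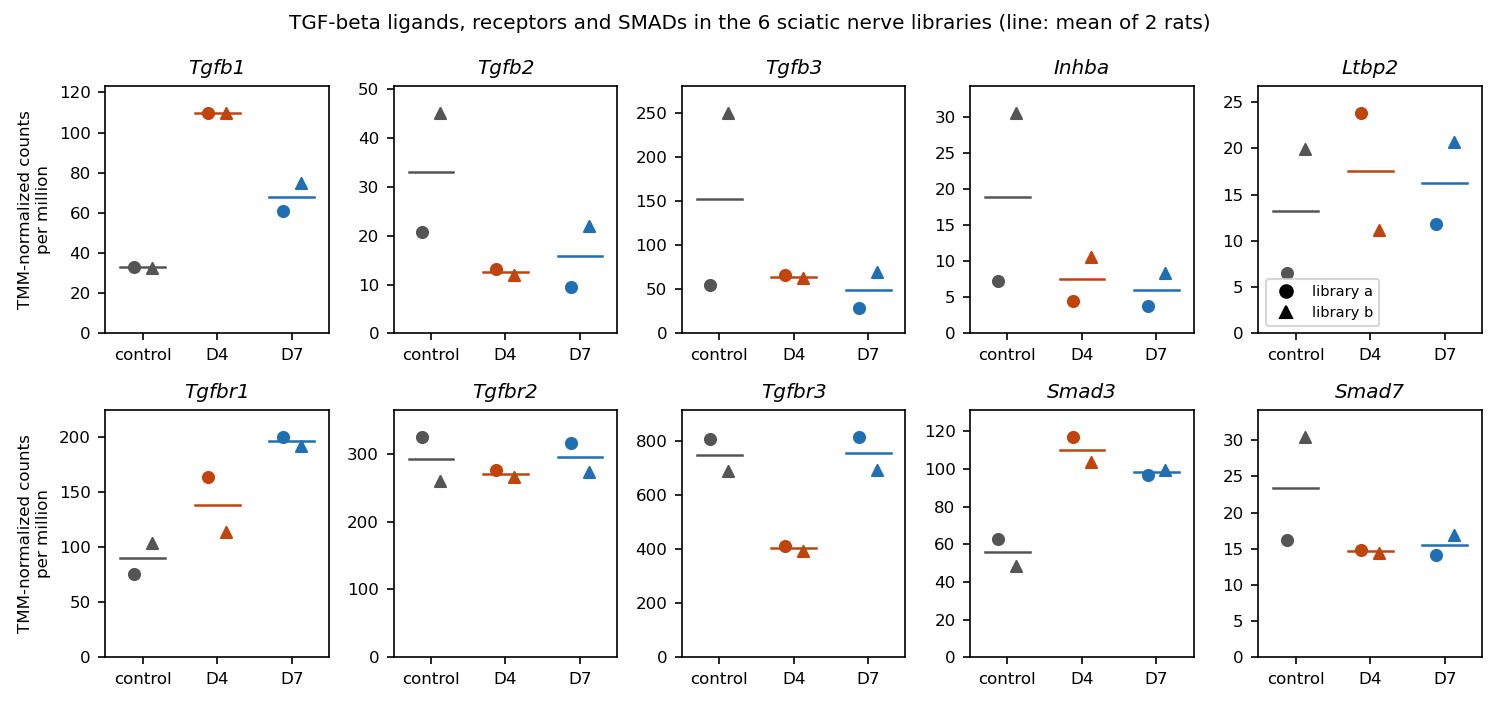
TMM-normalized CPM (vertical axis, linear from 0) of the 10 members in the control, D4 and D7 groups; circles are library a, triangles library b, and the line is the mean of 2 rats. Tgfb1 is at 32.8 in both control libraries and 110 in both D4 libraries, whereas Tgfb3 is at 54.8 and 251 within the control group.

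Tgfb1, which encodes the TGF-beta isoform made by many immune and stromal cells, was upregulated at both times and was highest at D4. Its level was 32.8 CPM in both control libraries, 110 in both D4 libraries, and 60.9 and 74.7 in D7 a and b, from raw counts of 638, 544, 2678, 2978, 1297 and 1510. The 3 groups did not overlap, and the rats of the control and D4 groups were nearly equal. Tgfb1 was 3.35-fold higher at D4 (log2 fold change 1.74 ± 0.12 SE, adjusted p = 0.000242) and 2.06-fold higher at D7 (1.05 ± 0.12, adjusted p = 0.00162). From D4 to D7 the level fell by 0.70 on the log2 scale (SE 0.12, adjusted p = 0.0353), which is less than 2-fold. The D4 call was kept under all 17 alternatives, and the D7 call, close to the threshold of 2-fold, was lost without D7 b (log2 fold change 0.89, adjusted p = 0.00459) and when a change beyond 2-fold was itself tested (adjusted p = 0.739), with adjusted p from 9.88e-11 to 0.739 over the alternatives. The gene lies at chr1:82480195-82497199 in Rnor_6.0.

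The summed macrophage markers (Cd68, Cd163, Mrc1, Adgre1, Csf1r, Cd14, Itgam and Aif1) were also highest at D4 in sum. The sums in control a and b, D4 a and b, and D7 a and b were 352, 318, 1104, 1087, 676 and 831 CPM, so the mean was 3.27-fold higher at D4 and 2.25-fold higher at D7. All 8 markers were called higher at D4 and 6 at D7. The sum is carried by Mrc1 and Csf1r, and its members differ. Both D4 libraries lay above both D7 libraries for Csf1r, Mrc1, Itgam, Cd163, Aif1 and Cd14, as for Tgfb1. The days overlapped for Adgre1 (64.4 and 74.4 CPM at D4, 60.9 and 86.2 at D7). They also overlapped for Cd68 (107 and 71.7 at D4, 84.2 and 86.4 at D7). No test compared these courses. Tgfb1 amounted to between 8.99% and 10.3% of this sum in every library. Among 13778 mRNAs with a mean of at least 1 FPKM (fragment counts scaled to gene length and library size) in a group, the profile nearest to that of Tgfb1 over the 6 libraries was Msr1, a scavenger receptor of macrophages, with a root mean square difference of 0.04 on the log2 scale, followed by E2f1, a cell cycle transcription factor, at 0.07. Msr1 was at 9.22, 9.76, 31.1, 31.5, 18.4 and 22.2 CPM in the same order. The nearest other member was Smad3, at 0.47, with rank 758. A sum highest at D4 was not particular to macrophage markers. In the same order of libraries, immature or repair Schwann cell markers summed to 494, 392, 2796, 3013, 2178 and 1960 CPM. Dividing cell markers summed to 31.2, 66.5, 794, 931, 529 and 567 CPM. The part of macrophages, Schwann cells or dividing cells in the Tgfb1 values was not tested.

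**Figure D2:**
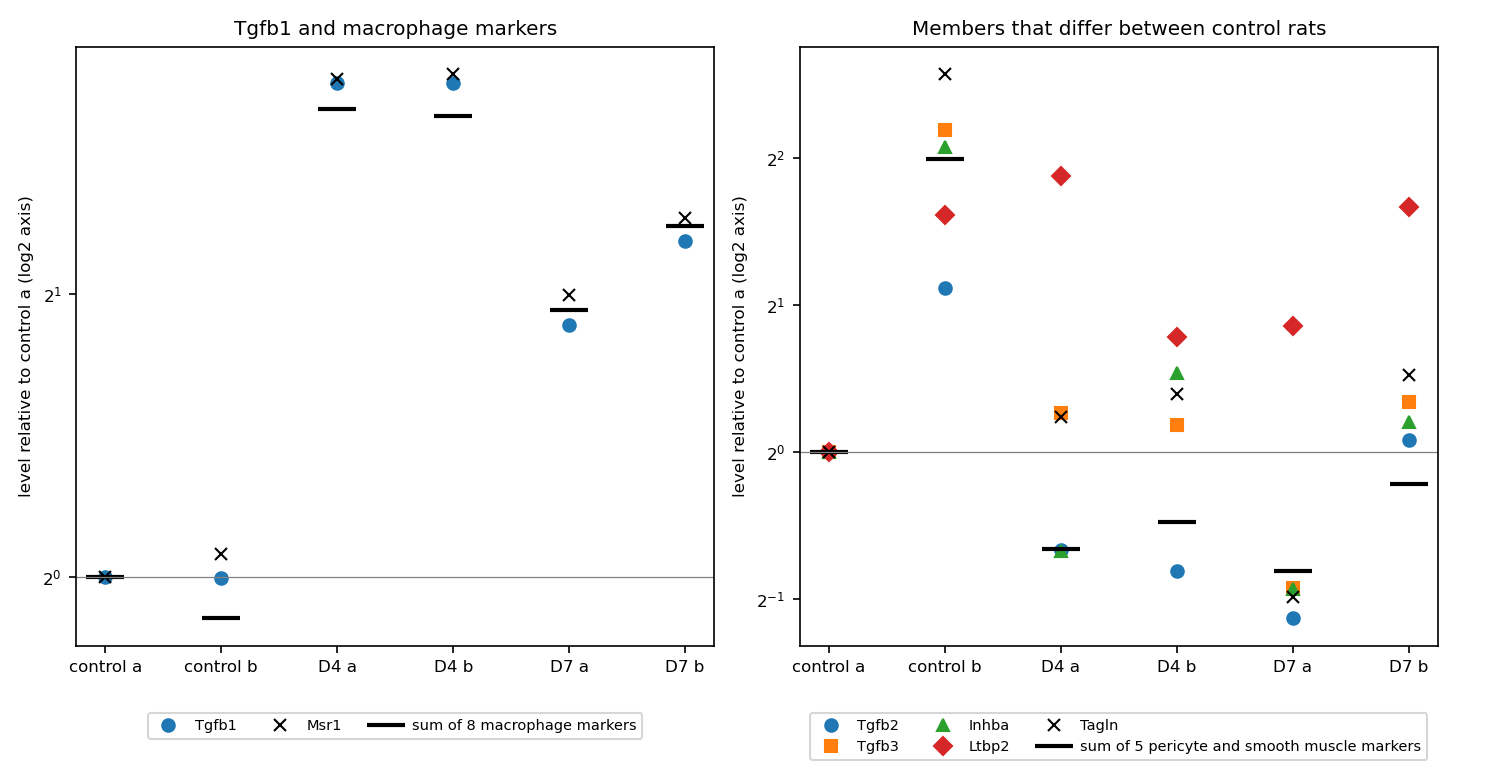
Level in each library relative to control a (log2 axis). In the left panel Tgfb1, Msr1 and the sum of 8 macrophage markers are all highest in the D4 libraries; in the right panel Tgfb3, Inhba, Tagln and the sum of 5 pericyte and smooth muscle markers are about 4-fold or more above control a in control b, with Tgfb2 and Ltbp2 also above it.

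Tgfb3 encodes a further TGF-beta isoform and was the ligand with the highest mean FPKM in control nerve, but its control libraries differed widely. It was at 54.8 and 251 CPM in control a and b, 66.1 and 62.4 at D4, and 28.9 and 69.5 at D7. Control a lay below both D4 libraries and control b was 4.57-fold above control a, so the groups overlapped. The log2 fold change was -1.25 ± 0.71 at D4 (adjusted p = 0.2) and -1.63 ± 0.72 at D7 (adjusted p = 0.124), and neither was called. Without control a the D4 value was -1.96 (adjusted p = 0.0244), and without control b it was 0.23 (adjusted p = 0.738), and over all alternatives the adjusted p ran from 0.0244 to 0.917. The gene whose profile was nearest to Tgfb3 was Tagln, which encodes transgelin, an actin-binding protein of smooth muscle, at 211 and 1259 CPM in control a and b. Tgfb3 amounted to 5.76% and 6.59% of the pericyte and smooth muscle marker sum in control a and b, 10.9% and 9.13% at D4, and 5.33% and 8.49% at D7. In control b this sum is carried mainly by Myh11, at 2621 CPM. The part of pericytes and smooth muscle cells in the Tgfb3 values was not tested. Tgfb3 lies at chr6:109913757-109935533.

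Inhba encodes the inhibin beta A chain, which forms activin A, a TGF-beta family ligand that also signals through Smad2 and Smad3. It was at 7.26 and 30.7 CPM in control a and b, 4.55 and 10.6 at D4, and 3.80 and 8.36 at D7. The b library was above the a library in each group, by 4.23-fold in control, 2.32-fold at D4 and 2.20-fold at D7, although the letters are not a pairing of rats across groups. The groups overlapped, with log2 fold changes of -1.32 ± 0.76 at D4 (adjusted p = 0.202) and -1.64 ± 0.77 at D7 (adjusted p = 0.144). Without control b the D4 value was 0.06 (adjusted p = 0.95), and without control a it was -2.02 (adjusted p = 0.0464), within a range of adjusted p from 0.0251 to 0.95 over the alternatives. Tgfb3 was the member nearest to Inhba in profile, at 0.40 on the log2 scale. The gene lies at chr17:51898217-51912496.

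Tgfb2 encodes the isoform best known from development. Its level was 20.8 and 45.2 CPM in control a and b, 13.1 and 11.9 at D4, and 9.48 and 22.0 at D7. Both D4 libraries were below both control libraries, whereas D7 b lay above control a. Log2 fold changes were -1.40 ± 0.49 at D4 (adjusted p = 0.0596) and -1.07 ± 0.48 at D7 (adjusted p = 0.131). At D4 it crossed the threshold in 9 of 17 alternatives, among them DESeq2 (-1.38, adjusted p = 0.0108), edgeR's exact test (-1.40, adjusted p = 0.0168) and the fit without control a (-1.85, adjusted p = 0.0269), but not without control b, with adjusted p from 0.0108 to 0.49 over the alternatives. Tgfb2 lies at chr13:105039853-105141030.

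Ltbp2 encodes a latent TGF-beta binding protein of the extracellular matrix which, unlike its relatives, does not bind latent TGF-beta itself. It was at 6.49 and 19.9 CPM in control a and b, 23.9 and 11.2 at D4, and 11.8 and 20.7 at D7. The groups overlapped, and the libraries differed by 3.07-fold within control and by 2.14-fold within D4, with a above b at D4. Against control the log2 value was 0.41 ± 0.60 at D4 (95% interval -1.06 to 1.88, adjusted p = 0.606) and 0.31 ± 0.61 at D7 (adjusted p = 0.718). The D4 value ran from -0.24 without D4 a to 1.43 without control b. Its promoter is the one with 3 SMAD boxes above, and the gene lies at chr6:108500112-108596569.

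Tgfb2, Tgfb3, Inhba and Ltbp2 differed by at least 2-fold between the control rats. They are 4 of 11 rows, where 8.63% of all mRNAs tested differed that much between the control rats. At D4 this held for 2 rows (Inhba and Ltbp2) beside 4.89% of all mRNAs, and at D7 for 3 rows (Tgfb2, Tgfb3 and Inhba) beside 7.47%. All the genes concerned are secreted products, and Tgfb1 was the ligand that differed least between rats. Other marker sums also differed between control a and b, with endothelial markers at 789 and 1417 and skeletal muscle markers at 1.18 and 32.1 CPM. Between the D7 rats the sum of adipocyte markers differed, at 4.41 CPM in D7 a and 350 in D7 b.

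**Figure D3:**
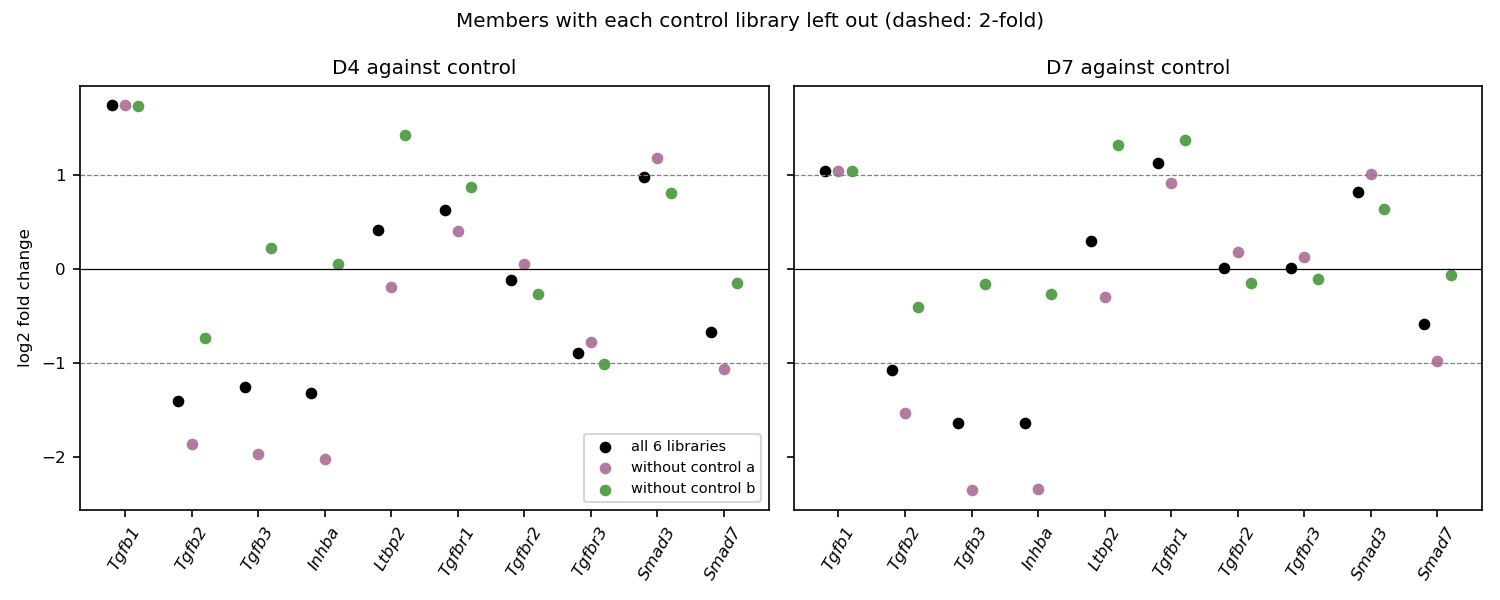
Log2 fold change of each member at D4 (left) and D7 (right) against control with all 6 libraries and with control a or control b left out. Tgfb1 hardly moves, whereas the D4 value of Tgfb3 goes from -1.96 without control a to 0.23 without control b.

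The receptors followed 3 different courses. Tgfbr1, the type I receptor kinase that phosphorylates Smad2 and Smad3, was upregulated at D7. It was at 75.6 and 104 CPM in control a and b, 164 and 114 at D4, and 201 and 192 at D7. Each group lay above the one before, with the 2 D4 libraries the farthest apart in ratio. The log2 fold change was 0.63 ± 0.22 at D4 (adjusted p = 0.058) and 1.13 ± 0.22 at D7, a 2.19-fold rise (adjusted p = 0.0101). The difference between D7 and D4 was 0.50 ± 0.22 (adjusted p = 0.218), so that a change from one day to the other was not shown. The D7 call was lost without control a (0.91, adjusted p = 0.0359) and when a change beyond 2-fold was tested (adjusted p = 0.605, with the alternatives reaching down to 1.41e-05). This entry is ENSRNOG00000007036 at chr5:63050758-63119635. The second entry named Tgfbr1, ENSRNOG00000050760 at chr5:64566804-64584309, had only 8, 12, 15, 16, 17 and 24 counts and was not called, and reads shared between the entries could have been split.

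Tgfbr3, or betaglycan, is a membrane proteoglycan that binds TGF-beta and presents it to Tgfbr2. Its level was 808 and 689 CPM in control a and b, 411 and 395 at D4, and 816 and 693 at D7. Both D4 libraries were far below the other 4, and the D7 libraries were at the control level. The log2 fold change was -0.89 ± 0.13 at D4, a 1.86-fold difference (adjusted p = 0.00288), and 0.01 at D7 (95% interval -0.30 to 0.33, adjusted p = 0.953). From D4 to D7 the value was 0.90 ± 0.13 (adjusted p = 0.0264). Both D4 contrasts passed the adjusted p but not the 2-fold threshold, which was reached at D4 without control b (-1.0025, adjusted p = 0.00434) and between D7 and D4 without D7 b (1.02, adjusted p = 0.0295). Over the alternatives the adjusted p ran from 8.92e-09 to 1 at D4 and from 1.02e-07 to 1 between the days, the value of 1 being that of the test for a change beyond 2-fold. Tgfbr3 lies at chr14:3506339-3682545.

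Tgfbr2, the type II receptor kinase that binds the ligand first, had nearly equal levels in the 3 groups. It was at 325 and 259 CPM in control a and b, 275 and 265 at D4, and 315 and 273 at D7, and the groups overlapped. Against control the value was -0.11 on the log2 scale at D4 (95% interval -0.45 to 0.22, adjusted p = 0.54) and 0.01 at D7 (95% interval -0.33 to 0.35, adjusted p = 0.961). The intervals leave out a 2-fold change in either direction. Tgfbr2 lies at chr8:124312754-124399494.

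Smad3, the receptor-activated SMAD that binds the SMAD box, was close to the 2-fold threshold on both days. Its level was 62.8 and 48.6 CPM in control a and b, 117 and 103 at D4, and 96.9 and 99.6 at D7. Every crushed nerve lay above both control nerves. The log2 fold change was 0.98 ± 0.14 at D4, or 1.98-fold (adjusted p = 0.00287), and 0.82 ± 0.14 at D7, or 1.76-fold (adjusted p = 0.0073). The adjusted p passed on both days and the fold did not, and at D4 it was called in 9 of 17 alternatives, 1 of them the setting with no fold threshold, with adjusted p from 2.61e-08 to 1. Examples are DESeq2 (1.004, adjusted p = 2.61e-08) and the fit of only the control and D4 libraries (1.04, adjusted p = 0.00481). Between D7 and D4 the difference was -0.17 (adjusted p = 0.517). Smad3 lies at chr8:68569530-68678349.

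Smad7, the inhibitory SMAD that TGF-beta itself induces, was not called. It was at 16.2 and 30.5 CPM in control a and b, 14.9 and 14.5 at D4, and 14.2 and 17.0 at D7. The libraries of the crushed nerves were close to control a, and control b was 1.88-fold above control a. Against control it was at a log2 fold change of -0.67 ± 0.29 at D4 (adjusted p = 0.11) and -0.58 ± 0.29 at D7 (adjusted p = 0.165). Without control a the D4 value was called (-1.06, adjusted p = 0.00695), and without control b it was -0.15 and not called, with adjusted p from 0.00695 to 1 over the alternatives. The gene is on chromosome 18, at 71395830 to 71424157.

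**Figure D4:**
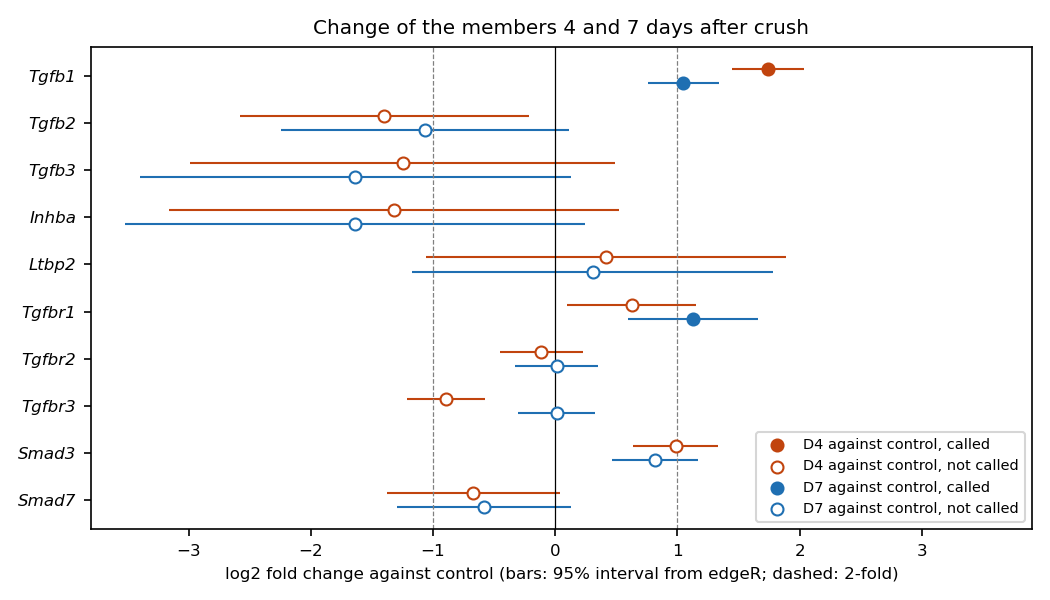
Log2 fold change of each member against control (horizontal axis) with its 95% interval from edgeR; filled points are called, open points are not, and dashed lines mark 2-fold. The intervals of Tgfb3, Inhba and Ltbp2 are the widest, and Tgfb1 at D4 and D7 and Tgfbr1 at D7 are the filled points.

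Per length, the receptors Tgfbr2 and Tgfbr3 had the highest mean FPKM of the members in every group. The receptor Tgfbr1 had a lower mean than Tgfb3 and Tgfb1 in control nerve and at D4. In the deposited FPKM values of control nerve, Tgfbr3 was at 108 ± 10.2 (SD, n = 2) and Tgfbr2 at 91.6 ± 13.0. Tgfb3 came next with 51.4 ± 47.1, and its range overlapped that of Tgfbr2. Tgfb1 (13.4 ± 0.216), Tgfbr1 (12.7 ± 3.09) and Smad3 (9.66 ± 1.57) followed, with overlapping ranges of Tgfb1 and Tgfbr1 and of Tgfbr1 and Smad3. The lowest members were Inhba (6.54), Tgfb2 (5.997), Smad7 (4.77) and Ltbp2 (1.15), of which the ranges of Inhba and Tgfb2 and of Tgfb2 and Smad7 overlapped.

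The order differed after crush. At D4 Tgfbr2 led with 104 ± 2.66 FPKM (SD, n = 2), followed by Tgfbr3 with 71.2 ± 1.92 and Tgfb1 with 54.8 ± 0.106, with no overlap among these. Tgfb1 was thereby the ligand with the highest FPKM at D4, above Tgfb3 at 26.2 ± 1.01. At D7 Tgfbr3 (134 ± 14.2) and Tgfbr2 (113 ± 10.3) were first, and Tgfbr1 (34.1 ± 0.678) and Tgfb1 (34.0 ± 5.23) followed with overlapping ranges. The FPKM and TMM scales are not the same, since the FPKM ratio of D4 to control for Tgfbr2 is above 1 whereas its TMM-scaled log2 fold change is -0.11.

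The rest of the TGF-beta family pathway was described by 7 lists with 117 genes in the table, of which 102 were tested. At D4, 20 were called higher and 11 lower, which is 30.4% of those tested, with 11.2% of all mRNAs called higher and 10.7% called lower. At D7, 13 were called higher and 12 lower, 24.5% of those tested, with 9.83% and 9.02% over all mRNAs.

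**Figure D5:**
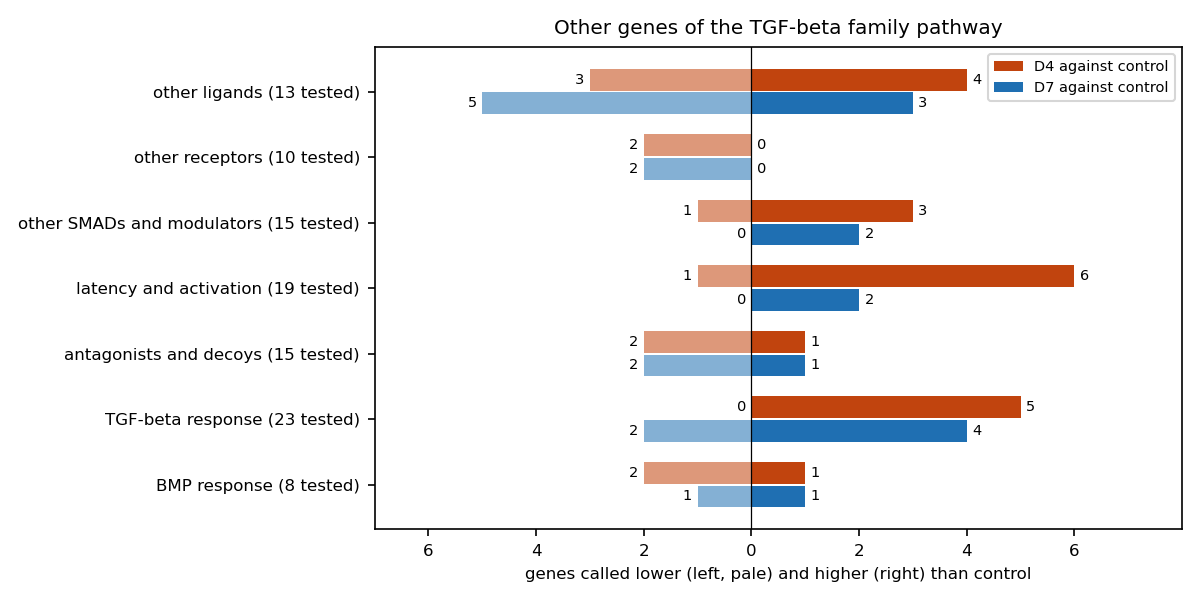
Number of genes of each pathway list called lower (left, pale) and higher (right) than control at D4 and D7, with the number tested in brackets. The latency and activation list has 6 genes higher and 1 lower of 19 at D4, and 2 higher and 0 lower at D7.

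Among 13 other ligands tested, 4 were called higher and 3 lower at D4, and 3 higher and 5 lower at D7. Gdf15, a stress-induced ligand, had 9 and 0 counts in control a and b, 114 and 84 at D4, and 73 and 43 at D7, with a fitted log2 fold change of 3.96 ± 0.86 at D4 (adjusted p = 0.0128). Gdf11 was 2.83-fold higher at D4 (adjusted p = 0.00039) and 2.61-fold higher at D7. Bmp7 was 2.38-fold higher at D4 (adjusted p = 0.00622), with a D7 log2 fold change of 0.42 that was not called. The lower ones were bone morphogenetic protein (BMP) genes: at D4 the log2 fold change was -1.90 for Bmp3, -1.96 for Bmp5 and -1.92 for Bmp6, with adjusted p values of 0.00512, 0.0269 and 0.00713. All 3 were also called lower at D7, at -1.81, -1.95 and -2.41.

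Of 10 other receptors, 2 were called lower on each day and 0 higher. Acvr2a, an activin type II receptor, was at 64.7 and 77.4 CPM in control nerve, 31.6 and 27.4 at D4, and 32.9 and 32.3 at D7, and was 2.41-fold lower at D4 (adjusted p = 0.000752) and 2.18-fold lower at D7. Bmpr1b, a BMP type I receptor, was 2.34-fold lower at D4 (adjusted p = 0.0281) and 3.41-fold lower at D7 (adjusted p = 0.0109). The list median was -0.56 at D4 and -0.67 at D7, beside -0.04 and 0.01 over all mRNAs.

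Among 15 other SMADs and modulators, 3 were called higher and 1 lower at D4. Smad2, which acts beside Smad3 downstream of the same receptors, was at 161 and 141 CPM in control nerve, 64.7 and 62.7 at D4, and 93.0 and 61.0 at D7. It was 2.36-fold lower at D4 (log2 fold change -1.24 ± 0.20, adjusted p = 0.0043), and its D7 value of -0.97 was under 2-fold. The D4 call was lost without TMM (-0.95, adjusted p = 0.00862) and when a change beyond 2-fold was tested (adjusted p = 0.266), and at D7 it was called without control b (-1.06, adjusted p = 0.0271) or without D7 a (-1.28, adjusted p = 0.00419). Smad2 was thus below control at D4 where Smad3 was above it. Nedd4l, a ubiquitin ligase, was 3.33-fold higher at D4 (adjusted p = 0.00231) and 2.03-fold at D7. Tgif1, a corepressor of SMADs, was 2.73-fold higher at D4 and 2.80-fold at D7. Pmepa1, a feedback inhibitor of TGF-beta signaling, was 2.35-fold higher at D4 (adjusted p = 0.0154).

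Of 19 genes of latency and activation, 6 were called higher and 1 lower at D4. Itgb8, the integrin chain that with alpha V releases latent TGF-beta, was at 301 and 258 CPM in control nerve, 1130 and 1312 at D4, and 1665 and 1344 at D7. It was 4.37-fold higher at D4 (log2 fold change 2.13 ± 0.16, adjusted p = 0.000311) and 5.38-fold at D7 (adjusted p = 0.000399). Thbs1, thrombospondin 1, which can also release latent TGF-beta, was 3.64-fold higher at D4 (adjusted p = 0.00122). At D7 it was 1.91-fold higher (adjusted p = 0.0171), which is under 2-fold and so not called. Mmp9, a matrix protease, had 4 and 0 counts in control nerve, 76 and 134 at D4, and 23 and 82 at D7, and was called higher at both times. Plg, plasminogen, was lower at D4 (log2 fold change -2.26, adjusted p = 0.0212) from counts of 53 and 68 in control nerve and 21 and 15 at D4.

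Among 15 antagonists and decoys, 1 was called higher and 2 lower at D4, and 1 higher and 2 lower at D7. Sostdc1, a secreted BMP antagonist, was 7.61-fold lower at D4 (adjusted p = 0.000454). Fst, follistatin, which binds and blocks activins, was 3.63-fold lower at D4 (adjusted p = 0.023), while the activin chain gene Inhba was not called. Htra1, a secreted protease, was 2.60-fold higher at D4 and 2.37-fold at D7.

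Of 23 known TGF-beta response genes tested, 5 were called higher and 0 lower at D4, and 4 higher and 2 lower at D7. Tnc, the matrix glycoprotein tenascin C, was 5.57-fold higher at D4 (log2 fold change 2.48 ± 0.20, adjusted p = 0.000358) and 4.11-fold at D7. Junb, an AP-1 transcription factor gene, was 3.44-fold higher at D4 and 2.76-fold at D7, and Timp1, a metalloproteinase inhibitor, 3.29-fold and 2.63-fold. Not all genes of this list rose. Mean levels in control, D4 and D7 were 25665, 16230 and 12388 CPM for Col1a1 and 28637, 16652 and 15623 for Col3a1. For Lox they were 380, 244 and 165. The list median was 0.45 at D4 and -0.03 at D7. Of 8 BMP response genes, Id3 was called higher at D4 (2.10-fold), and Id2 and Msx1 lower (2.74-fold and 2.97-fold). Msx1 was at 3.55 and 9.76 CPM in control a and b and at 2.13 and 2.33 at D4, so its fold rests largely on control b. Many genes on these lists answer to other signals too.

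Between D7 and D4, 3 of the 102 pathway genes (2.94%) were called. Sostdc1 and Id2 were higher at D7, where 1.68% of all mRNAs were called higher, and Nbl1 was lower, where 0.494% were called lower.

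Long noncoding RNAs (lncRNAs) within 10 kb of a member numbered 18, of which 8 could be tested. At D4, 1 was called, where 10.1% of the 14077 lncRNAs tested were called. At D7, 0 were called (2 at an unadjusted p below 0.05 by edgeR, and 0 by DESeq2), where 5.79% of all were. Between D7 and D4, 0 were called by edgeR (3 at an unadjusted p below 0.05), 2 by DESeq2, and 0.249% of all lncRNAs by edgeR. The share of all lncRNAs at an unadjusted p below 0.05 is not given here, so those counts are not read as an excess.

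The called lncRNA was NONRATT028681.2, which lies 47 bases outside the Smad3 span at chr8:68678396-68678901. It had 4 and 2 counts in control a and b, 30 and 26 at D4, and 15 and 15 at D7. Its log2 fold change was 3.02 ± 0.47 at D4 (adjusted p = 0.0189) and 2.19 at D7 (adjusted p = 0.0606), so that it lay on the same side of control as Smad3 on both days. In this edgeR fit it was the only lncRNA at a member called in any of the 3 comparisons, whereas DESeq2 called 2 at D4 and 2 between D7 and D4, and it is not inside the gene span.

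At the other end of Smad3 lie NONRATT028679.2 (chr8:68569530-68571914) and NONRATT028680.2, which share 810 bases. NONRATT028679.2 had 161 and 10 counts in control a and b, 0 and 0 at D4, and 217 and 150 at D7. Against a floor of 3 counts per library it was at least 30.7-fold lower at D4 than the control mean and at least 63.7-fold higher at D7 than at D4. The first limit rests on control a, since without it the limit is 3.88-fold, and without control b it is 57.6-fold. It was not called at D4 (adjusted p = 0.0763). NONRATT028680.2 had 3 and 86, 3 and 2, and 4 and 4 counts and was not tested. The sum of both was 164 and 96 in control nerve, 3 and 2 at D4, and 221 and 154 at D7, so that the 2 control libraries differ less in the sum than in either transcript. Smad3 itself had its highest mean at D4, where this sum was lowest. Its log2 fold change of D7 against D4 was only -0.17 (edgeR adjusted p = 0.517). At D7 Smad3 was still 1.76-fold above control, whereas the sum of the lncRNAs overlapped that of the control libraries. The study, with edgeR at the same thresholds, places Smad3 and both lncRNAs among those changed only at D4, with opposite trends. In the present fit neither Smad3 nor these lncRNAs were called at D4. The strandedness of the counting is not given in the sources used here, and reads of overlapping transcripts, including the Smad3 mRNA, cannot be told apart.

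The remaining lncRNAs at members were not called or had too few counts to test. The most abundant, named after its values were seen, was MSTRG.8680.1 inside Tgfbr3, at 590 and 539 CPM in control nerve, 333 and 320 at D4, and 750 and 599 at D7. Like Tgfbr3 it was lowest in both D4 libraries, and the log2 value was -0.79 ± 0.16 at D4 (adjusted p = 0.0346, under 2-fold) and 1.04 ± 0.16 between D7 and D4 (adjusted p = 0.0975). MSTRG.27712.1, inside Tgfbr2, was at 289 and 393 CPM in control nerve, 183 and 196 at D4, and 257 and 301 at D7, with -0.85 ± 0.20 at D4 (adjusted p = 0.0547), and reads of these transcripts and their host genes cannot be told apart. NONRATT009102.2, inside Tgfb2, had 7, 10, 5, 5, 2 and 3 counts in control, D4 and D7, and NONRATT009701.2, inside Tgfbr3, had 0, 0, 0, 2, 0 and 0, and neither was tested.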

How the data were processed

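Ribosomal RNA was removed from total RNA, and paired-end libraries were sequenced. The authors aligned reads to the rat genome with HISAT2 2.0.4 and counted fragments with StringTie 1.3.0 (build Rnor_6.0 in the submitters' processing notes). The deposited tables hold raw counts per mRNA gene and per lncRNA transcript, and FPKM calculated by the authors for the same rows. Their strandedness is not given in the sources used here.

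From the deposited counts, low genes were filtered (filterByExpr), TMM factors were computed, and 1 model of the 3 groups was fitted in edgeR 4.0.16 (R 4.3.3, glmQLFit and glmQLFTest). P values were adjusted by Benjamini-Hochberg over all mRNAs or all lncRNAs tested. Genes with an adjusted p below 0.05 and at least 2-fold change were called. CPM values are counts scaled to the TMM-adjusted library size. The biological coefficient of variation was 0.181 for mRNAs and 0.399 for lncRNAs. Counts totalled 18727255 to 25350886 per library for mRNAs, and the floor of 3 counts covers counting error only. FPKM was used for levels between genes, without a test. Profile likeness was the root mean square difference of log2 CPM (prior count 2) centred on the control mean.

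All 10 members are named. From each pathway list, up to 3 of the largest rises and of the largest falls called at D4 are named if both D4 libraries lie on the same side of both controls, with any list gene called between D7 and D4 and lncRNAs called at members, and with 4 lncRNAs at Smad3, Tgfb2 and Tgfbr3 that the study pairs with these genes. The 2 nearest profiles are named for Tgfb1. Tagln, Col1a1, Col3a1, Lox and 2 lncRNAs inside Tgfbr2 and Tgfbr3 were named after their values were seen. Members, lists and tests were chosen with earlier results of these data known. Alternatives were DESeq2 1.42.0, edgeR's exact test, other scaling, filters, thresholds and samples, and a replicate block by library letter. The scripts were tested on simulated data. Promoters came from the RefSeq table (GRCr8), whose coordinates are not those of Rnor_6.0. Chromosome positions of genes and lncRNAs are as deposited.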

Additional observations from a re-analysis of the deposited data

Results flagged for a closer look

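3 genes of the pathway lists differed between the 2 days after crush in a direct test of D7 against D4 (edgeR's quasi-likelihood test, Benjamini-Hochberg adjusted over all mRNAs). Sostdc1, a BMP antagonist, was at 120 and 102 CPM in control a and b, 11.1 and 18.1 at D4, and 129 and 106 at D7, and its log2 fold change of D7 against D4 was 3.01 (SE 0.25, adjusted p = 0.0117). Both D7 libraries were at the control level and both D4 libraries far below it. Id2, a transcriptional inhibitor induced by BMPs, was at 11.7 and 22.4, 6.36 and 6.06, and 21.8 and 24.0 CPM in the same order, with a log2 fold change of 1.88 (SE 0.30, adjusted p = 0.0322). Nbl1, a further BMP antagonist, was at 283 and 199, 463 and 439, and 190 and 203 CPM, and was lower at D7 with -1.20 (SE 0.17, adjusted p = 0.0264). With either D4 library left out, 0 of 15195 mRNAs were called between D7 and D4, these 3 included. No other gene of the 7 lists and no member passed both thresholds between the days.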

How the results depend on the processing

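Each group had 2 rats, so a value can rest on 1 library, and unsorted nerve gives no cell type of origin. With all 6 libraries 1 member was called at D4. It was 3 with only the 2 groups compared, with the library letter as a replicate block (Tgfb1, Tgfb2 and Inhba, which at -1.15 had an adjusted p of 0.0251), with DESeq2 and with no fold threshold (Tgfb1, Tgfbr3 and Smad3). It was 2 with the exact test, without TMM, with RLE factors, with no filter, with at least 10 counts in every library and with D4 letters exchanged. Leaving out 1 library gave 1 to 6, with 6 without control a (Tgfb1, Tgfb2, Tgfb3, Inhba, Smad3 and Smad7). At D7 the 2 calls became 0 when a 2-fold change was tested by glmTreat, and 2 to 4 with 1 library left out, 4 being without control a. With the replicate block 3 members were called at D7, Inhba being the one gained (-1.45, adjusted p = 0.0161), and the count was also 3 without TMM, with no fold threshold (Smad3 gained in both) and with D4 letters exchanged (Tgfb2 gained). Between D7 and D4 the count of 0 became 2 with no fold threshold and 0 to 1 with 1 library left out.

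The pathway genes called at D4, 31, became 13 by glmTreat, 48 with no fold threshold and 20 to 39 with 1 library left out. At D7, 25 became 7, 42 and 19 to 31, and between the days 3 became 1, 5 and 0 to 4. Of lncRNAs at members, 1 was called at D4, 2 by DESeq2, 0 with overlap of the gene span required and 0 to 2 with 1 library left out. At D7, 0 became 1 without TMM, and between the days 0 became 2 by DESeq2, and leaving out 1 library gave 0 in both.

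Directions turned for values that were not called. With 1 library left out, D4 values ran from -1.96 to 0.23 for Tgfb3, -2.05 to 0.061 for Inhba, -0.24 to 1.43 for Ltbp2, -0.26 to 0.54 for the second Tgfbr1 entry and -0.27 to 0.060 for Tgfbr2. D7 values ran from -0.29 to 1.32 for Ltbp2, -0.14 to 0.18 for Tgfbr2, -0.10 to 0.13 for Tgfbr3 and -0.047 to 0.22 for Sostdc1. D7 against D4 ran from -0.40 to 0.80 for Tgfb2, -1.15 to 0.10 for Tgfb3, -0.99 to 0.41 for Inhba, -0.57 to 0.54 for Ltbp2 and -0.049 to 0.20 for Smad7. Without TMM the D4 value of Tgfbr2 was 0.18 and the D7 value of Nbl1 0.0017. The D7 value of Tgfbr2 was -0.0052 by DESeq2 and -0.0051 with RLE factors, and that of Tgfbr3 was -0.0040 with both. The cause of each turn was not tested beyond the library or factor left out. TMM scaling matters for direction, since without it the median log2 fold change over mRNAs was 0.25 at D4 and 0.31 at D7, and the share of calls that were higher went from 51.2% to 69.3% and from 52.1% to 70.4%.

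The letters a and b are not stated to link rats across groups. The correlation of same-letter deviations was 0.01 between control and D4, 0.19 between control and D7 and -0.13 between D4 and D7, so they were not treated as pairs. Exchanging the D4 letters in the block, chosen after seeing the data, gave 2 members called at D4.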
